A study of Mus musculus with 21 samples.

Results

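Cholesterol and fatty acid synthesis was followed through 32 genes, taken by name from the deposited expression table, and all 32 are among the 16443 genes it lists. They comprise 7 genes of the mevalonate steps, 3 of the squalene and lanosterol steps, 8 of the late sterol steps, 6 of SREBP control and sterol transport, and 8 of fatty acid synthesis and desaturation. The RNA came from 2TS22C, a mouse embryonic stem cell line, and was selected on its poly(A) tail. The line was studied in 4 forms, each in serum with LIF (SL) or in such medium with 2i, a pair of inhibitors that act on MEK and on GSK3. NTC cells, the control, were not transduced, carry the genotype label WT, and have no agent listed. In the other lines the cells' own SOX2 was silenced, a lentivirus supplied a replacement, and DOX is listed as the treatment. The replacement was SOX2 itself, SOX17FNV (an engineered SOX17, called FNV here), or miniSOX, which the labels name without describing it. All lines share 1 parent line, and no source used here gives the promoter of the transgenes or the number of clones behind each line. Because transduction, silencing and DOX set every rescued line apart from NTC at once, their shares in a difference from NTC cannot be told apart.

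The 21 libraries form 8 groups: 3 NTC, 4 SOX2, 4 FNV and 2 miniSOX libraries in 2i, and 2 of each line in SL. Their sample numbers fall in 2 runs, called waves here. The first wave holds replicates 1 and 2 of NTC, SOX2 and FNV. The second holds all miniSOX libraries plus 5 libraries in 2i whose columns are named p21 or p31. Only the titles of these 5 differ in form, holding biol_rep. The miniSOX titles have the form of the first-wave titles, and no label names a batch. Where values are listed below, they follow the order replicate 1, replicate 2, p21, p31, with NTC lacking a p21 library. The biol_rep titles are numbered 2 or 3 and none is numbered 1, so replicates 1 and 2 of a line may together stand for 1 biological replicate. The labels do not say that replicates 1 and 2 are separate cultures, so the p-values measure the spread between these libraries, which may be technical.

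Cells build cholesterol from acetyl-CoA by way of mevalonate, farnesyl pyrophosphate, squalene and lanosterol, and a run of late enzymes then turns lanosterol into cholesterol. Fatty acids start from the same acetyl-CoA and are afterwards lengthened and given double bonds. When membranes are poor in sterol, SCAP carries the SREBP transcription factors to the Golgi for cleavage and they switch on most genes of both pathways, whereas INSIG proteins hold them back when sterol is plentiful.

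The deposited values are whole numbers on a scale that the authors made nearly equal in every library, with totals of 14044316 to 14047262, so the read depth behind a value is unknown. Changes are given as log2 differences of value + 1 with their standard error, from 1 limma model over all genes with a term for each group and for the wave. A gene passed at a Benjamini-Hochberg adjusted p under 0.05 over 16443 genes. Sox17 read 1792 to 30391 in the FNV and miniSOX libraries and 0 to 6 in the others, and Sox2 read 19 to 60 in the former and 533 to 2697 in the latter, as the labels have it. The embryonic stem cell markers Pou5f1 (6245 to 16422) and Nanog (4525 to 21188) were present in all libraries.

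One library stood apart on the members. NTC p31 in 2i was above both first-wave NTC libraries in 2i for 24 of the 32 genes and below both for 7. It exceeded their mean by over 1.5 times for 14 genes and fell short of it by that factor for 1, Ebp. Fasn, which encodes the multifunctional fatty acid synthase, showed the widest gap, with 4973 and 4582 in replicates 1 and 2 and 22915 in p31, a ratio of 4.80. Over the members, the median ratio of second-wave to first-wave values was 1.39 in NTC, 0.904 in SOX2 and 0.981 in FNV. The library also differed from NTC replicates 1 and 2 in 2i on cell type markers, with Cdx2 at 519 against 15 and 12 and Tdgf1 at 1219 against 4524 and 4454. The sum over 10 embryonic stem cell markers was 53859 against 86931 and 87876. Sall4, from the same list, went the other way, at 2635 against 1040 and 1124. Part of this was shared by the other p31 libraries. Tdgf1 was 1521 in SOX2 p31 (3862 to 5330 in the other SOX2 libraries in 2i) and 3237 in FNV p31 (4409 to 5265). In both, Sall4 was the highest of its group (1804 and 1525) and Ebp the lowest (322 and 407). Cdx2 was 452 in FNV p31 (217 to 245) and 40 in SOX2 p31 (0 to 27). The embryonic stem cell sum was at least 80974 in SOX2 and 71962 in FNV in 2i. Comparisons of the members with NTC in 2i are therefore given with and without this library, which is the only second-wave NTC library. Comparisons of other genes and markers include it.

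**Figure D1:**
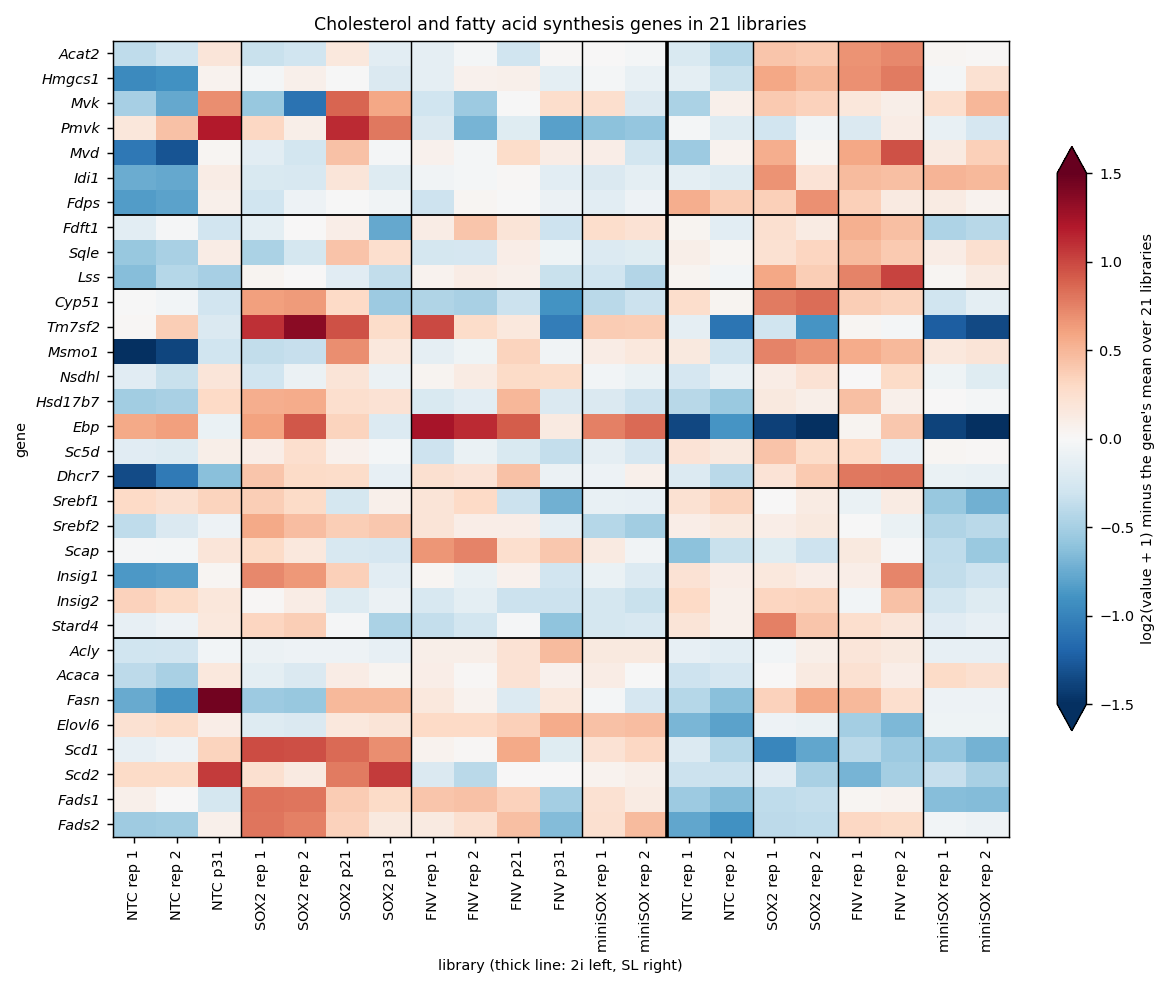
Each cell is a gene's log2(value + 1) in a library minus that gene's mean over the 21 libraries, with the colour scale ending at 1.5 in either direction, rows grouped by pathway step and columns by line within 2i (left) and SL (right). NTC replicates 1 and 2 in 2i are low for Hmgcs1, Idi1, Fdps, Msmo1 and Dhcr7, with NTC p31 nearer to the mean, and Ebp is low in the SL libraries of NTC, SOX2 and miniSOX.

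The first question was how the medium affected these genes in each line. Mevalonate genes were lower in 2i than in SL wherever they passed the test, and genes of fatty acid synthesis and desaturation were higher in 2i wherever they passed. In NTC cells 5 members were higher in 2i (15.6%, against 11.9% of all genes) and 6 lower (18.8%, against 12.8%). In SOX2 cells 7 were higher (21.9% against 22.3%) and 9 lower (28.1% against 22.5%). In FNV cells 4 were higher (12.5% against 20.3%) and 13 lower (40.6% against 20.4%). In miniSOX cells 10 were higher (against 17.0%) and 3 lower (9.38% against 16.4%). Members had a median change of -0.04 for NTC, -0.24 for SOX2, -0.38 for FNV and -0.05 for miniSOX, beside medians between -0.02 and 0.03 over all genes.

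These counts leaned on single libraries in 2 lines. In FNV the 17 members that changed became 10 without SL replicate 1 (against 31.8% of all genes) and 10 without SL replicate 2 (against 31.5%), close to the background. In miniSOX the 13 became 5 without 2i replicate 1, 6 without 2i replicate 2, 7 without SL replicate 1 and 5 without SL replicate 2, which is 15.6% to 21.9% of members against 22.4% to 23.1% of all genes. The first wave alone gave 16 changed members in NTC (50%, against 36.3% of all genes), 22 in SOX2 (68.8% against 50.7%) and 17 in FNV (53.1% against 46.5%), and the second wave alone gave 8 in miniSOX (25.0% against 28.8%). Without NTC p31 the NTC comparison also gave 16 (against 28.7% of all genes).

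Among the 7 mevalonate genes, all 7 were lower in 2i in FNV, 5 in SOX2 (Acat2, Hmgcs1, Mvk, Idi1 and Fdps), and 1 each in NTC (Fdps) and miniSOX (Idi1). Among the calls not taken up below, that of Mvk, the mevalonate kinase, in SOX2 held whichever library was left out but not without the wave term (-0.98, and -0.42 at 0.540 without it). In FNV, Mvk, Pmvk, Mvd, Idi1 and Fdps were all lost without the wave term (adjusted p = 0.0576 to 0.718). Those of Idi1, the isopentenyl pyrophosphate isomerase, were lost in SOX2 without SL replicate 1 (adjusted p = 0.10), in FNV without SL replicate 1 (0.0514) and in miniSOX without any 1 of its 4 libraries (0.0574 to 0.0826). In FNV, Mvk was lost without SL replicate 1 (0.0970) or 2 (0.0684) and Mvd without SL replicate 2 (0.101), while Pmvk (0.0430) was lost without any of 16 libraries, at 0.259 without SL replicate 2. Acat2 makes acetoacetyl-CoA, the first intermediate, in the cytosol. In 2i it read 814, 861 and 1201 in NTC, 841, 862, 1182 and 949 in SOX2, 962, 1035, 861 and 1075 in FNV, and 1060 and 1035 in miniSOX. In SL it read 901 and 784 in NTC, 1414 and 1389 in SOX2, 1687 and 1749 in FNV, and 1079 and 1075 in miniSOX. All SOX2 and FNV libraries in SL lay above all of their libraries in 2i, whereas NTC overlapped between media. The change in 2i was -0.68 ± 0.13 in SOX2 (adjusted p = 9.42e-04) and -0.92 ± 0.13 in FNV (7.28e-05), against 0.09 ± 0.14 in NTC and -0.04 ± 0.15 in miniSOX, neither of which passed.

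Fdps, the synthase of farnesyl pyrophosphate from which both sterols and prenyl groups derive, read 870, 892 and 1641 in NTC, 1269, 1479, 1546 and 1496 in SOX2, 1251, 1582, 1545 and 1461 in FNV, and 1389 and 1471 in miniSOX in 2i. Its SL values were 2267 and 2016 in NTC, 1998 and 2503 in SOX2, 1997 and 1709 in FNV, and 1700 and 1617 in miniSOX. The SL libraries were the higher ones in every line, with no overlap in any of them. The change in 2i was -1.08 ± 0.18 in NTC (adjusted p = 5.12e-04) and -0.79 ± 0.17 in SOX2 (0.00194). In FNV it was -0.50 ± 0.17 (0.0309), which was lost without FNV 2i replicate 1 (adjusted p = 0.0789) or FNV SL replicate 1 (0.208), and in miniSOX it was -0.21 ± 0.19 and did not pass.

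Hmgcs1, the synthase of HMG-CoA, read 1429, 1471 and 2865 in NTC, 2698, 2919, 2761 and 2374 in SOX2, 2525, 2897, 2919 and 2503 in FNV, and 2698 and 2566 in miniSOX in 2i. The SL libraries held 2493 and 2199 in NTC, 4138 and 3863 in SOX2, 4455 and 4733 in FNV, and 2698 and 3238 in miniSOX. The SOX2 and FNV libraries in SL were the highest of all 21. The change in 2i was -0.86 ± 0.21 in FNV (adjusted p = 0.00364). In SOX2 it was -0.67 ± 0.21 (0.0156), and this was lost without SOX2 SL replicate 1 (0.0886) or replicate 2 (0.0521).

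Sqle and Lss, the squalene epoxidase and the lanosterol synthase, were lower in 2i in all 4 lines, as 3.53% of all genes were. Fdft1, the other gene of these steps, passed only in miniSOX and as higher in 2i (0.68, adjusted p = 0.0223 in limma). It read 1471 and 1429 in miniSOX in 2i and 892 and 921 in SL. That call was lost without any 1 of the 4 miniSOX libraries (0.65 to 0.70) and in the second wave alone (0.68). Sqle read 761, 805 and 1222 in NTC, 811, 943, 1516 and 1351 in SOX2, 943, 949, 1211 and 1086 in FNV, and 979 and 996 in miniSOX in 2i. Under SL it read 1201 and 1152 in NTC, 1321 and 1414 in SOX2, 1578 and 1482 in FNV, and 1227 and 1336 in miniSOX. FNV and miniSOX did not overlap between media, while the second-wave libraries of NTC and SOX2 in 2i reached the SL values. The Sqle change was -0.55 ± 0.11 in NTC (adjusted p = 0.00271), -0.55 ± 0.11 in SOX2 (9.73e-04), -0.82 ± 0.11 in FNV (3.72e-05) and -0.37 ± 0.12 in miniSOX (0.0270). Without the wave term none of the 4 passed (-0.37 at 0.315 in NTC, -0.29 at 0.342 in SOX2, -0.55 at 0.0641 in FNV and -0.37 at 0.329 in miniSOX). The miniSOX call was lost without any 1 of its 4 libraries (adjusted p = 0.111 and 0.0902 without 2i replicates 1 and 2, and 0.0535 and 0.162 without SL replicates 1 and 2).

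Lss read 433, 503 and 480 in NTC, 695, 681, 600 and 523 in SOX2, 703, 731, 713 and 535 in FNV, and 550 and 500 in miniSOX in 2i. In SL it read 697 and 656 in NTC, 1014 and 870 in SOX2, 1129 and 1370 in FNV, and 690 and 743 in miniSOX. No line overlapped between media. The change was -0.81 ± 0.13 in FNV (adjusted p = 1.94e-04), -0.51 ± 0.13 in SOX2 (0.00622), -0.46 ± 0.13 in NTC (0.0218) and -0.45 ± 0.14 in miniSOX (0.0262). The call held in FNV whichever library was left out. It was lost in SOX2 without SL replicate 1 (0.0810), in NTC without 2i replicate 1 (0.109), SL replicate 1 (0.141) or SL replicate 2 (0.0657), and in miniSOX without any 1 of its 4 libraries (0.0541 to 0.154) or without the wave term (0.0587).

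Among the 8 late sterol genes the directions were mixed. Ebp, the sterol isomerase that shifts the ring double bond, was higher in 2i in all 4 lines, as 3.78% of all genes were. In 2i it read 550, 570 and 347 in NTC, 566, 706, 469 and 322 in SOX2, 873, 805, 694 and 407 in FNV, and 625 and 670 in miniSOX. Its SL values were 143 and 201 in NTC, 140 and 131 in SOX2, 381 and 493 in FNV, and 141 and 116 in miniSOX. NTC, SOX2 and miniSOX did not overlap between media, and FNV did because p31 (407) lay between its SL values. The change was 1.71 ± 0.22 in NTC (adjusted p = 6.39e-05), 2.20 ± 0.21 in SOX2 (1.95e-06), 0.96 ± 0.21 in FNV (0.00225) and 2.33 ± 0.23 in miniSOX (3.23e-06), and each call held whichever library was left out. FNV was 0.62 without the wave term and did not pass (0.151). The fitted change was larger in SOX2 than in FNV by 1.24 ± 0.29 (adjusted p = 0.00729), though without FNV SL replicate 2 this difference missed the threshold (1.06, adjusted p = 0.050), as it did without the wave term (0.0917). The annotation places Ebp at chrX:8185329-8193512 on the minus strand of GRCm38, with no other gene overlapping it.

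Msmo1, the methylsterol oxidase that removes methyl groups from the ring, went the other way. In 2i it read 560, 607 and 1277 in NTC, 1222, 1244, 2548 and 1755 in SOX2, 1438, 1509, 1988 and 1521 in FNV, and 1700 and 1763 in miniSOX. The SL libraries held 1737 and 1277 in NTC, 2635 and 2524 in SOX2, 2325 and 2208 in FNV, and 1763 and 1804 in miniSOX. The first-wave libraries of NTC, SOX2 and FNV in 2i lay well under their SL libraries, while NTC p31 equalled an SL value and SOX2 p21 lay between the SOX2 values in SL. The change was -1.20 ± 0.21 in NTC (adjusted p = 7.74e-04), -1.01 ± 0.20 in SOX2 (9.88e-04) and -0.83 ± 0.20 in FNV (0.00408), each held whichever library was left out. Without the wave term it was -0.97 in NTC (0.0517), -0.68 in SOX2 (0.107) and -0.50 in FNV (0.234), none of which passed. It was -0.04 ± 0.22 in miniSOX and did not pass.

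Tm7sf2, a sterol reductase, read 92, 118 and 78 in NTC, 196, 235, 178 and 110 in SOX2, 182, 110, 102 and 44 in FNV, and 119 and 118 in miniSOX in 2i. Under SL it read 83 and 42 in NTC, 74 and 49 in SOX2, 93 and 89 in FNV, and 38 and 35 in miniSOX. SOX2 and miniSOX did not overlap between media, and the change was 1.88 ± 0.36 in SOX2 (adjusted p = 7.59e-04) and 1.67 ± 0.40 in miniSOX (0.00459). It was 0.91 ± 0.37 in NTC and 0.47 ± 0.36 in FNV, which did not pass. Tm7sf2 overlaps Vps51 on the same strand in the annotation, so reads from the shared stretch cannot be told apart. Cyp51 with Akap9, Fdft1 with Ctsb and Mvd with Gm20388 overlap on opposite strands. No source used here states whether strand was used, so their reads cannot be told apart either. Srebf1 also overlaps Rai1, with the same uncertainty.

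Of the remaining late sterol genes, Dhcr7, the last reductase of the pathway, was lower in 2i in NTC and FNV, Cyp51, the lanosterol demethylase, in FNV, and Nsdhl, a sterol dehydrogenase, in SOX2. Each of these 4 calls was lost on leaving out a library. For Dhcr7 in NTC the change of -0.71 ± 0.20 (adjusted p = 0.0176) gave 0.0939 without 2i replicate 1, 0.0564 without 2i replicate 2 and 0.140 without SL replicate 1, and in FNV the change of -0.61 ± 0.20 (0.0206) gave 0.0839 and 0.0879 without SL replicates 1 and 2. For Cyp51 in FNV, -0.69 ± 0.22 (0.0194) gave 0.0610 and 0.0635 without 2i replicates 1 and 2, and 0.0880 and 0.0771 without SL replicates 1 and 2. For Nsdhl in SOX2, -0.37 ± 0.11 (0.0151) gave 0.0553 without 2i replicate 1 and 0.108 without SL replicate 2. Hsd17b7 and Sc5d, a ketosteroid reductase and a desaturase, passed in no line.

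The regulators did not move together. Srebf2 encodes SREBP2, the SREBP that chiefly drives sterol genes. In 2i it read 5052, 5669 and 6247 in NTC, 9720, 9105, 8467 and 8736 in SOX2, 7524, 7061, 7061 and 5995 in FNV, and 4901 and 4582 in miniSOX. In SL it read 7061 and 7310 in NTC, 7061 and 7310 in SOX2, 6556 and 6129 in FNV, and 4828 and 4973 in miniSOX. SOX2 libraries in 2i were above all others, and NTC libraries in 2i were below those in SL. The change in 2i was 0.35 ± 0.10 in SOX2 (adjusted p = 0.0106), lost without SOX2 SL replicate 1 (0.0673). In NTC it was -0.33 ± 0.10 (0.0276), lost without 2i replicate 1 (0.145) or 2 (0.0746) and without SL replicate 1 (0.0965) or 2 (0.137).

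Scap, the escort of the SREBPs, was higher in 2i in 3 lines. In 2i it read 665, 656 and 761 in NTC, 819, 749, 570 and 565 in SOX2, 1065, 1125, 800 and 886 in FNV, and 735 and 647 in miniSOX. Its SL values were 439 and 534 in NTC, 592 and 541 in SOX2, 745 and 660 in FNV, and 513 and 455 in miniSOX. The 3 lines that passed did not overlap between media, while SOX2 p21 and p31 lay among the SOX2 values in SL. The change was 0.60 ± 0.15 in NTC (adjusted p = 0.00786), 0.59 ± 0.14 in FNV (0.00454), 0.51 ± 0.16 in miniSOX (0.0208) and 0.37 ± 0.14 in SOX2 (0.0501). Without the wave term the NTC (0.0578) and miniSOX (0.0667) calls were lost. The call was also lost in NTC without SL replicate 1 (0.114), in FNV without SL replicate 2 (0.0551), and in miniSOX without 2i replicate 1 (0.144) or SL replicate 2 (0.140). Insig1 and Stard4, the latter a carrier of sterol between membranes, passed in no line. Insig2 passed only in FNV (-0.38 ± 0.12, adjusted p = 0.0194) and not without FNV 2i replicate 1 (0.0631) or SL replicate 2 (-0.14, 0.402), while without SL replicate 1 it was -0.62 (9.12e-04). Srebf1 passed only in miniSOX (0.53 ± 0.19, 0.0420). That call was lost without any 1 of the 4 miniSOX libraries (0.0834 to 0.194), and without SOX2 2i replicate 1 (0.0520) or 2 (0.0516) or NTC SL replicate 1 (0.0513) or 2 (0.0513).

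Elovl6, Scd1, Scd2 and Fads1 each passed as higher in 2i in 3 lines, and Fads2 and Acly in 1. Acly, the ATP citrate lyase, was higher in miniSOX only (0.27 ± 0.10, adjusted p = 0.0375, and 0.125 or 0.126 without any 1 of the 4 miniSOX libraries). Acaca, the acetyl-CoA carboxylase, and Fasn passed in no line. For Fasn, the first-wave libraries of NTC, SOX2 and FNV in 2i lay below those in SL. In SOX2 it read 5798, 5669, 11820 and 11820 in 2i and 10741 and 12489 in SL. FNV held 9369, 8736, 7310 and 9369 in 2i and 11820 and 10054 in SL. NTC in SL held 6247 and 5476, under NTC p31 (22915), and miniSOX overlapped between media. Scd1, a stearoyl-CoA desaturase that places a double bond in saturated fatty acids, read 1574, 1632 and 2169 in NTC, 3404, 3375, 3108 and 2781 in SOX2, 1792, 1749, 2548 and 1521 in FNV, and 2006 and 2137 in miniSOX in 2i. The SL libraries held 1487 and 1277 in NTC, 876 and 1002 in SOX2, 1303 and 1182 in FNV, and 1149 and 1049 in miniSOX. SOX2 libraries were the highest of all in 2i and the lowest of all in SL. The change was 1.71 ± 0.18 in SOX2 (adjusted p = 4.08e-06), 0.91 ± 0.20 in miniSOX (0.00236) and 0.33 ± 0.18 in NTC, which did not pass. In FNV it was 0.54 ± 0.18 (0.0255), lost without FNV 2i replicate 1 (0.0516), SL replicate 1 (0.0614) or SL replicate 2 (0.147).

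Fads1, the delta-5 desaturase of polyunsaturated fatty acids, read 819, 783 and 647 in NTC, 1370, 1356, 1010 and 946 in SOX2, 1037, 1055, 991 and 545 in FNV, and 913 and 850 in miniSOX in 2i. Under SL it read 534 and 497 in NTC, 597 and 607 in SOX2, 791 and 805 in FNV, and 501 and 496 in miniSOX. NTC, SOX2 and miniSOX were higher in 2i with no overlap. The change was 1.16 ± 0.16 in SOX2 (adjusted p = 4.87e-05), 0.82 ± 0.18 in miniSOX (0.00227), 0.68 ± 0.16 in NTC (0.00732, and 0.0592 without NTC SL replicate 2 or 0.142 without the wave term) and 0.36 ± 0.16 in FNV, which did not pass. Its neighbour Fads2, the delta-6 desaturase, passed in SOX2 only (0.98 ± 0.27, 0.00861).

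Elovl6, the elongase of saturated and monounsaturated fatty acids, read 3208, 3301 and 2932 in NTC, 2394, 2351, 3056 and 3134 in SOX2, 3376, 3375, 3513 and 4032 in FNV, and 3725 and 3770 in miniSOX in 2i. In SL it read 1694 and 1569 in NTC, 2601 and 2548 in SOX2, 1917 and 1715 in FNV, and 2621 and 2621 in miniSOX. SOX2 overlapped between media and the other lines did not. The change was 0.89 ± 0.11 in NTC (adjusted p = 3.76e-05), 0.89 ± 0.10 in FNV (1.00e-05), 0.52 ± 0.11 in miniSOX (0.00290) and -0.01 ± 0.10 in SOX2, which did not pass. Scd2, a second stearoyl-CoA desaturase, was higher in NTC (0.67 ± 0.13, 0.00204), SOX2 (0.59 ± 0.13, 0.00188) and miniSOX (0.49 ± 0.14, 0.0141), the last not without 2i replicate 1 (0.0560), 2i replicate 2 (0.0738) or SL replicate 2 (0.105), nor without the wave term (0.241). Scd1 and Scd2 are close paralogs, and how reads were split between them is not given, so their values carry that uncertainty.

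**Figure D2:**
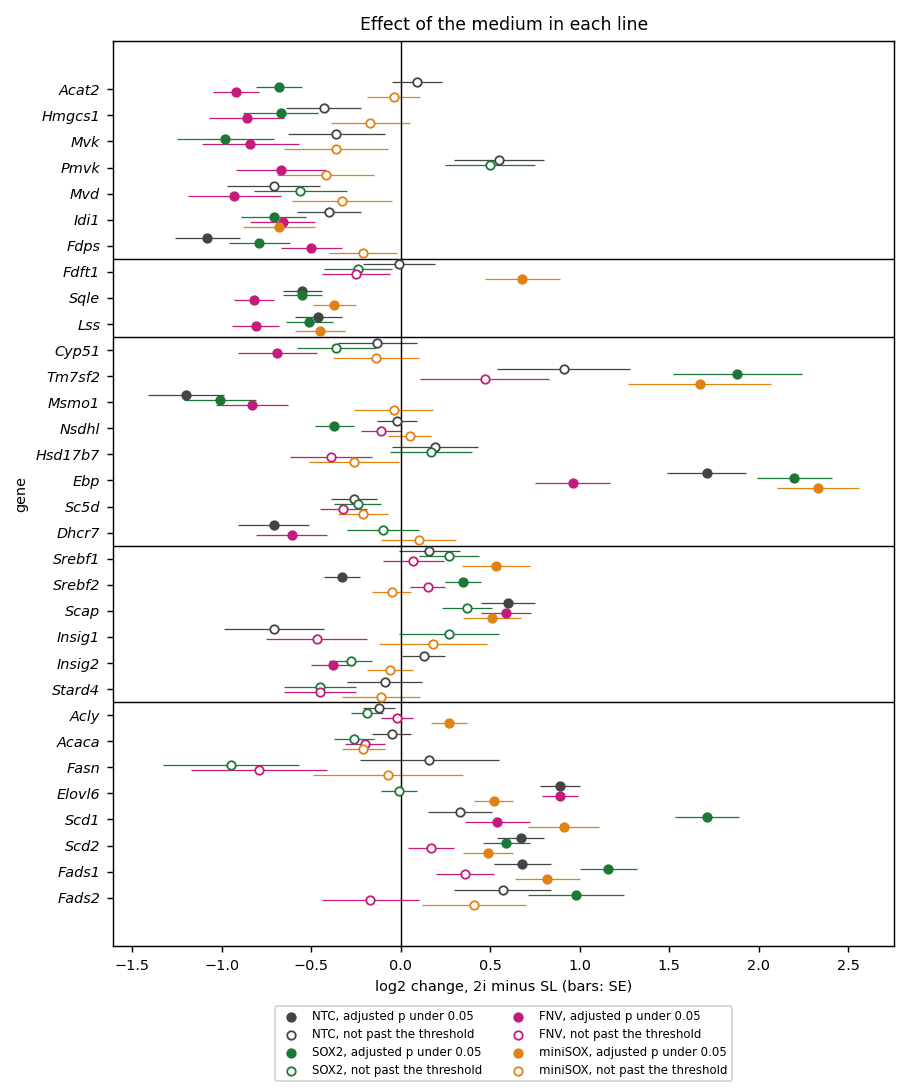
Points are log2 changes of 2i minus SL for each gene in the 4 lines, bars are the standard error, and filled points passed at an adjusted p under 0.05. Ebp sits at 0.96 to 2.33 in every line, Sqle and Lss lie to the left of 0 in every line, and Scd1, Scd2, Fads1 and Elovl6 have filled points to the right in 3 lines each.

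Summed markers of other cell types differed between media in some lists and lines. The trophectoderm sum was higher in 2i in FNV and lower in the other lines, and the endoderm sums of NTC and SOX2 overlapped. The summed value of 10 fibroblast markers was 135 to 193 in NTC in 2i and 531 to 581 in SL, 160 to 224 and 267 to 299 in SOX2, 143 to 219 and 1039 to 1078 in FNV, and 209 to 317 and 1832 to 2021 in miniSOX. Between 3 and 6 of these 10 markers were lower in 2i in each line and 0 were higher. Over all genes 12.8% to 22.5% were lower in a line and 11.9% to 22.3% higher. Lum was at 0 in all SL libraries, and Dcn was at 0 in the SL libraries of NTC and SOX2. The summed value of 9 trophectoderm markers was 1229 to 2750 in NTC in 2i and 9459 to 9479 in SL, 825 to 1421 and 1622 to 2310 in SOX2, 5256 to 7366 and 2457 to 2473 in FNV, and 2586 to 2652 and 16206 to 16299 in miniSOX. In miniSOX in SL most of that sum was Krt8 (8269 and 8024) and Krt18 (5475 and 5475). Cdx2 read 0 to 2 in SL and 0 to 519 in 2i. The summed value of 6 extraembryonic endoderm markers was 4261 to 5941 in NTC in 2i and 4658 to 4936 in SL, 2208 to 4443 and 3520 to 3940 in SOX2, 7478 to 8224 and 5659 to 6663 in FNV, and 5347 to 5668 and 8110 to 8335 in miniSOX. The part of these cells or genes in the members' changes was not tested, and in such bulk RNA fewer cells of a type and less RNA per cell cannot be told apart.

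The next comparison set SOX2-rescued cells against NTC in 2i. Members that passed were all higher in SOX2: 12 of 32 (37.5%, against 14.4% of all genes), with 0 lower against 14.3% (2 lower at an unadjusted p under 0.05 in limma). Their median change was 0.20, and 0.02 over all genes. Higher were 2 mevalonate genes (Hmgcs1, Mvd), Lss, 4 late sterol genes (Tm7sf2, Msmo1, Hsd17b7, Dhcr7), 2 regulators (Srebf2, Insig1) and 3 desaturases (Scd1, Fads1, Fads2). The 3 rescued lines are compared with the same NTC libraries here and below, so their differences from NTC are not independent of each other.

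Dhcr7 showed the largest of these changes. In 2i it read 214, 260 and 353 in NTC, 727, 665, 659 and 502 in SOX2, 646, 626, 738 and 511 in FNV, and 517 and 576 in miniSOX. Its SL values were 471 and 411 in NTC, 627 and 717 in SOX2, 947 and 952 in FNV, and 510 and 505 in miniSOX. Every rescued library exceeded every NTC library of its medium. The change in 2i was 1.22 ± 0.16 in SOX2 (adjusted p = 1.02e-04), held whichever library was left out. For Msmo1, whose values are given above, it was 0.98 ± 0.17 (7.21e-04) although NTC p31 (1277) exceeded SOX2 replicates 1 and 2 (1222 and 1244). For Srebf2 it was 0.68 ± 0.08 (4.73e-05), with every SOX2 library above every NTC library, and for Scd1 0.82 ± 0.15 (0.00117), again with no overlap.

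Insig1, the sterol-sensing anchor that retains SCAP, read 645, 657 and 1201 in NTC, 1946, 1842, 1502 and 1052 in SOX2, 1201, 1094, 1231 and 966 in FNV, and 1094 and 1018 in miniSOX in 2i. The SL libraries held 1363 and 1261 in NTC, 1317 and 1261 in SOX2, 1261 and 1953 in FNV, and 913 and 946 in miniSOX. First-wave SOX2 libraries in 2i lay far above first-wave NTC libraries, whereas SOX2 p31 was below NTC p31. The change in SOX2 was 0.95 ± 0.23 (adjusted p = 0.00707).

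The waves differed in this comparison. The first wave alone gave 18 changed members, 17 higher and 1 lower (56.2% changed, against 35.9% of all genes), and the second wave alone, with NTC p31 as its only NTC library and that library assumed to vary like the other groups, gave 1, the lower Fasn at -0.96 (3.12% against 9.34%). Without NTC p31 there were 17, 16 higher and 1 lower (53.1% against 28.1%). Dhcr7 was 1.56 in the first wave (adjusted p = 3.90e-05) and 0.70 in the second, which did not pass, and Hmgcs1 was 0.95 (1.20e-04) and -0.16. The count fell to 6 without NTC 2i replicate 1 (18.8%, against 21% of all genes) and to 7 without NTC 2i replicate 2 (21.9% against 21.8%), which is at or under the background. Hmgcs1, Mvd, Lss, Tm7sf2, Hsd17b7 and Fads2 each lost the call without NTC 2i replicate 1 (adjusted p = 0.0529 to 0.156), and all of these except Lss also without NTC 2i replicate 2 (0.0515 to 0.144). Leaving out SOX2 2i replicate 1 ended the calls of Hmgcs1 (0.0953), Mvd (0.0771) and Hsd17b7 (0.125). Leaving out SOX2 2i replicate 2 ended those of Hmgcs1 (0.116), Mvd (0.0585), Tm7sf2 (0.0640) and Hsd17b7 (0.123), and leaving out SOX2 p21 those of Mvd (0.0618) and Tm7sf2 (0.0630). Without NTC p31, Hmgcs1 rose to 0.92 (4.36e-05) and Hsd17b7 to 0.89 (0.00475).

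FNV cells in 2i differed from NTC in both directions: 10 members were higher (against 19.7% of all genes) and 3 lower (9.38% against 20.0%), with a median of 0.27 beside -0.01 over all genes. Dhcr7 (1.20 ± 0.16, adjusted p = 4.31e-05), Msmo1 (0.97 ± 0.17, 3.82e-04) and Lss (0.53 ± 0.11, 0.00154) were higher with no overlap. So were Acly (0.40 ± 0.07, 4.88e-04) and Scap (0.51 ± 0.12, 0.00343), also with no overlap, while Mvd (0.80 ± 0.21, 0.00842), which makes isopentenyl pyrophosphate, overlapped because of NTC p31. Hmgcs1, Ebp, Srebf2 and Acaca were the other 4 and each lost the call without some library. Insig2, a second sterol-sensing anchor, was lower in FNV (-0.49 ± 0.10, 0.00111). Of 6 extraembryonic endoderm markers 3 were higher and 1 lower in FNV than in NTC in 2i (19.7% and 20.0% of all genes). Dab2 read 3897 to 4972 in FNV against 240 to 398 in NTC, and Gata6 251 to 408 against 16 to 76. Col4a1, from the same list, went the other way, at 84 to 694 in FNV against 1475 to 2954 in NTC. Of 9 trophectoderm markers 4 were higher and 1 lower. The part of these markers in the members' differences was not tested.

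Pmvk and Scd2 were the other lower genes. Pmvk, the phosphomevalonate kinase, read 242, 292 and 492 in NTC, 267, 228, 467 and 373 in SOX2, 185, 132, 189 and 122 in FNV, and 140 and 144 in miniSOX in 2i. Under SL it read 211 and 188 in NTC, 176 and 208 in SOX2, 185 and 233 in FNV, and 199 and 181 in miniSOX. In 2i every FNV and miniSOX library lay below every NTC and SOX2 library, and in SL the lines overlapped. The change in 2i was -1.16 ± 0.21 in FNV (adjusted p = 4.79e-04) and -1.52 ± 0.27 in miniSOX (8.19e-04), and each held whichever library was left out. The first wave alone gave -0.76 in FNV (0.0128). The second wave gave -1.69, but there NTC has only p31, the highest NTC library for Pmvk. Pmvk lies at chr3:89454541-89469013 on the plus strand of GRCm38 and overlaps no other annotated gene.

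Scd2 read 9718, 9718 and 16422 in NTC, 9368, 8734, 13688 and 16422 in SOX2, 6869, 5994, 8024 and 8024 in FNV, and 8269 and 8466 in miniSOX in 2i. In SL it read 6370 and 6370 in NTC, 7059 and 5667 in SOX2, 4901 and 5573 in FNV, and 6245 and 5667 in miniSOX. All FNV and miniSOX libraries in 2i were below all NTC and SOX2 libraries in 2i. The change from NTC in 2i was -0.79 ± 0.11 in FNV (adjusted p = 4.68e-05) and -0.86 ± 0.14 in miniSOX (4.30e-04). Within the first wave FNV gave -0.60 (0.00300), and in the second wave, where NTC has only p31, -1.03. The miniSOX change was -0.47 without the wave term and did not pass (0.233).

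Split by wave, the FNV comparison gave 24 changed members in the first, 20 higher and 4 lower (75.0%, against 42.4% of all genes), and 4 in the second, all lower (12.5% against 17.8%) and again against NTC p31 alone: Pmvk, Scd2, Fasn (-1.47) and Srebf1 (-0.85). Fasn had been higher in FNV in the first wave (0.92, adjusted p = 2.08e-04) and did not pass with both waves in the model. Without NTC p31 there were 17, 14 higher and 3 lower (53.1% against 38.0%). Of the members named with a call, Hmgcs1 (0.54 ± 0.17, adjusted p = 0.0222) lost it without NTC 2i replicate 1 (0.114) or 2 (0.107) or FNV 2i replicate 2 (0.0788), and rose to 0.93 without NTC p31 (1.42e-05). Acaca (0.29 ± 0.09, 0.0176) lost it without NTC 2i replicate 1 (0.0657) or 2 (0.0983) or FNV 2i replicate 1 (0.0730) or 2 (0.0551), and was 0.45 without NTC p31 (4.83e-04). Srebf2 (0.30 ± 0.08, 0.0108) lost it without NTC 2i replicate 1 (0.0682), and Ebp (0.60 ± 0.18, 0.0162) without NTC p31 (0.0527).

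**Figure D3:**
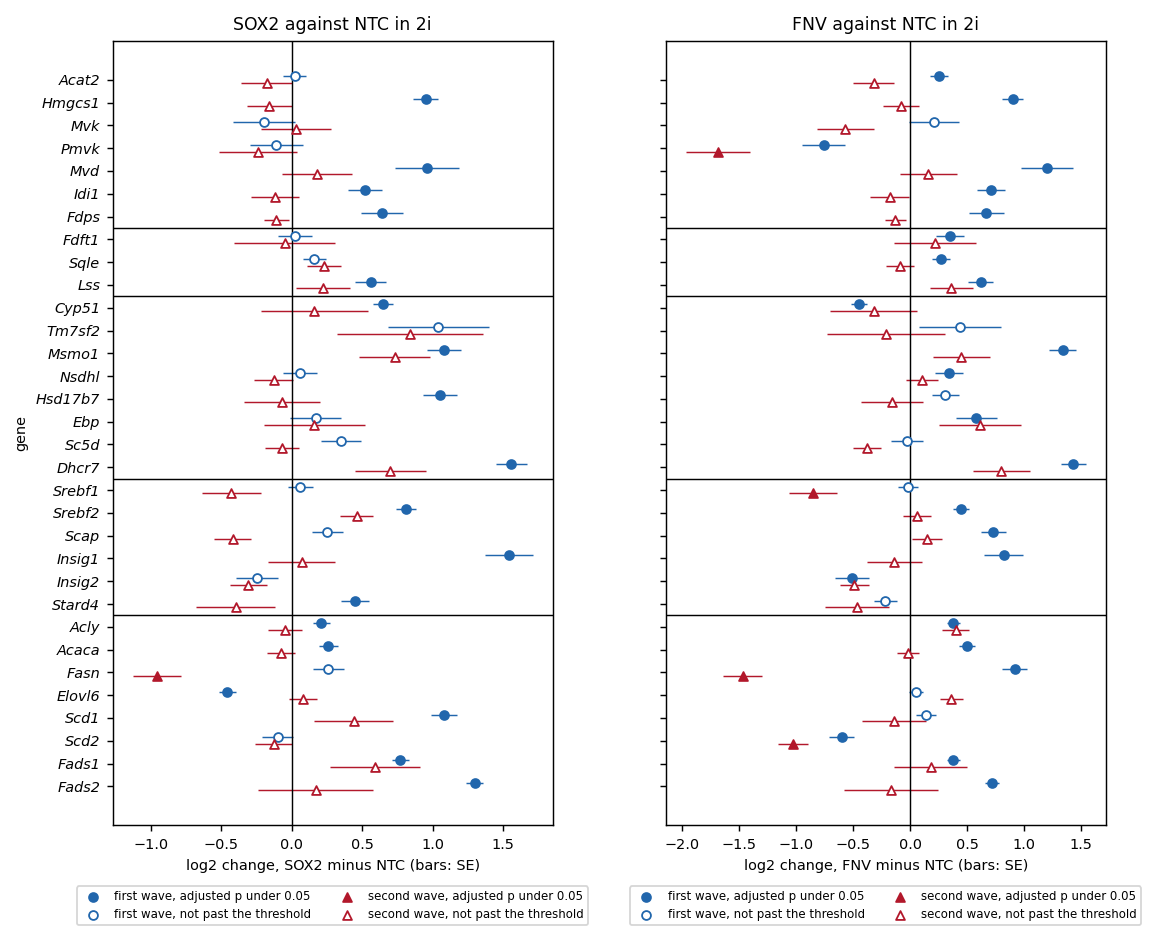
Points are log2 changes from NTC in 2i for SOX2 (left) and FNV (right), fitted on first-wave libraries (circles) or second-wave libraries (triangles) alone, with the standard error as bars and filled points at an adjusted p under 0.05. First-wave points of Hmgcs1, Msmo1 and Dhcr7 lie to the right of their second-wave points in both panels, and Fasn lies to the left of 0 in the second wave only.

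For miniSOX against NTC in 2i, 4 members were higher (12.5%, against 14.3% of all genes) and 3 lower (9.38% against 13.5%), which is near the background, and the median was 0.13 beside -0.01. Dhcr7 was higher (1.0 ± 0.21, adjusted p = 0.00307) and Pmvk and Scd2 were lower, as given above, and these calls held whichever library was left out. Msmo1 (0.75 ± 0.22, 0.0203) was lost without miniSOX 2i replicate 1 (0.0744) or 2 (0.0976), and Ebp (0.89 ± 0.23, 0.0108) without miniSOX 2i replicate 2 (0.0700) or the wave term (0.44, 0.401). Insig2 (-0.45 ± 0.13, 0.0171) was lost without NTC p31 (0.0579) or miniSOX 2i replicate 1 (0.0556) or 2 (0.102), and Fads1 (0.54 ± 0.18, 0.0337) without NTC 2i replicate 1 (0.0574) or 2 (0.0663) or miniSOX 2i replicate 1 (0.158) or 2 (0.0883). All miniSOX libraries are of the second wave, and that wave alone gave 3 changed members, Pmvk, Fasn and Scd2, all lower (9.38%, against 17.3% of all genes). Its only NTC library is p31, which stood apart, so these calls compare miniSOX with 1 library assumed to vary like the other groups. The count was 12 without NTC p31 (10 higher and 2 lower, 37.5% against 25.5%). Leaving out either miniSOX library in 2i leaves 1 in the group. The share of members changed then fell under that of all genes.

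Set against SOX2-rescued cells in 2i, FNV had 4 members higher (12.5%, against 12.4% of all genes) and 8 lower (25.0% against 12.9%), with a median of -0.06 beside -0.01. MiniSOX had 2 higher (6.25% against 7.32%) and 6 lower (18.8% against 7.57%), with a median of -0.19 beside -0.01. These comparisons share the SOX2 libraries. Srebf2 was lower in FNV (-0.39 ± 0.08, adjusted p = 0.00207) and in miniSOX (-0.90 ± 0.10, 5.05e-05), with no overlap in either. Pmvk was lower in FNV (-1.05 ± 0.19, 0.00104) and miniSOX (-1.42 ± 0.25, 0.00183), and Scd2 in FNV (-0.70 ± 0.10, 1.40e-04) and miniSOX (-0.77 ± 0.13, 0.00128, but -0.48 and 0.258 without the wave term).

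Scd1 was also lower in FNV than in SOX2 (-0.76 ± 0.14, adjusted p = 0.00110) with no overlap, and in miniSOX (-0.65 ± 0.18, 0.0249), where the call was lost without miniSOX 2i replicate 1 (0.157) or 2 (0.106). Cyp51 was lower in FNV (-0.79 ± 0.17, 0.00313). It read 1399, 1429, 1129 and 626 in SOX2 and 667, 656, 735 and 491 in FNV in 2i, and the groups overlapped because SOX2 p31 was low. Elovl6 (0.40 ± 0.08, 0.00243), Acly (0.31 ± 0.07, 0.00356) and Scap (0.53 ± 0.11, 0.00308) were higher in FNV than in SOX2. The first wave alone gave 16 changed members for FNV against SOX2 (against 34.1% of all genes) and the second wave alone gave 3 (against 5.08%), Pmvk, Scd2 and Scap. For miniSOX against SOX2 the second wave alone gave 4 (against 6.57%), Pmvk, Sqle, Srebf2 and Scd2, all lower. The miniSOX count of 8 fell without either miniSOX library in 2i, which leaves 1 in the group. The share of members changed then lay a little above that of all genes.

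**Figure D4:**
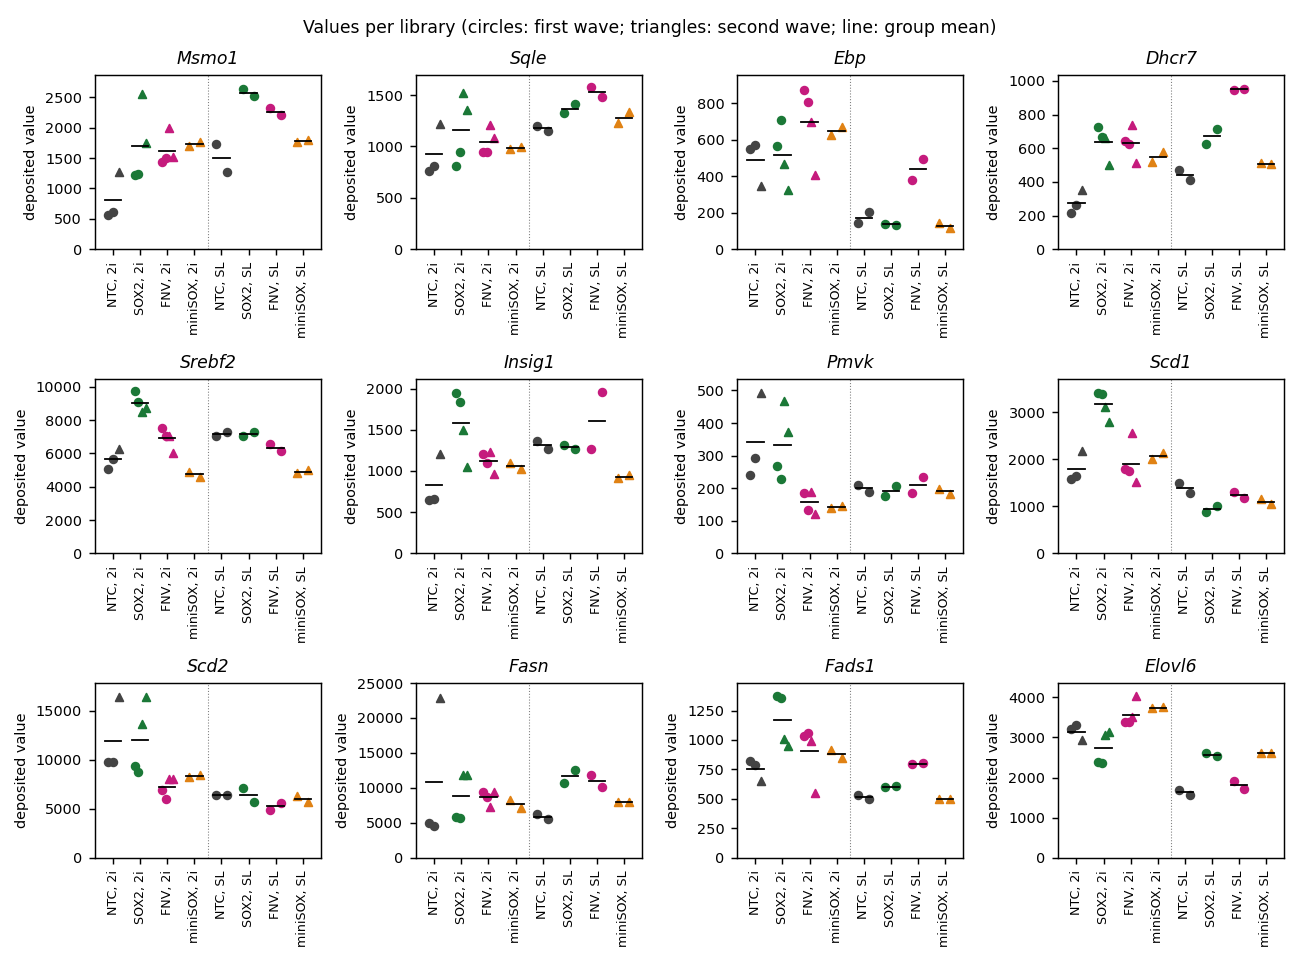
Deposited values of 12 members in each library (circles, first wave; triangles, second wave) with the group mean as a line, 2i left and SL right of the dotted line. Pmvk in 2i is at 122 to 189 in FNV and miniSOX and at 228 to 492 in NTC and SOX2, and the triangle of NTC stands above the circles for Msmo1, Insig1, Pmvk, Scd2 and Fasn.

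In SL, rescue with SOX2 or FNV went with higher members only. SOX2 had 6 higher than NTC (18.8%, against 7.35% of all genes) and 0 lower against 7.63% (1 at an unadjusted p under 0.05 in limma), with a median of 0.29 beside -0.01. FNV had 14 higher (43.8% against 14.2%) and 0 lower against 15.8% (0 at an unadjusted p under 0.05), with a median of 0.41 beside -0.04. For FNV these were Acat2, Hmgcs1, Mvd, Idi1, Sqle, Lss, Hsd17b7, Ebp, Dhcr7, Scap, Acly, Acaca, Fads1 and Fads2, and none overlapped with NTC. Ebp (1.35 ± 0.23, adjusted p = 6.33e-04), Dhcr7 (1.11 ± 0.21, 0.00136), Acat2 (1.03 ± 0.15, 1.33e-04), Hmgcs1 (0.97 ± 0.22, 0.00469) and Lss (0.88 ± 0.14, 4.21e-04) kept the call whichever library was left out. The other 9 each lost it without at least 1 of the NTC or FNV libraries in SL (adjusted p = 0.0541 to 0.221 where lost), and 8 of the 14 lost it without the wave term, at unchanged log2 values.

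The SOX2 genes in SL were Acat2 (0.74 ± 0.15, adjusted p = 0.00410), Elovl6 (0.66 ± 0.11, 0.00173), Hmgcs1, Msmo1, Idi1 and Lss, of which the first 2 kept the call whichever library was left out. The other 4 each lost it without at least 3 of the NTC and SOX2 libraries in SL (adjusted p = 0.0556 to 0.342 where lost), and the same 4 lost it without the wave term (0.0639 to 0.210). The SOX2 count was 3 without NTC SL replicate 1, 2 without NTC SL replicate 2, 2 without SOX2 SL replicate 1, 3 without SOX2 SL replicate 2 and 10 without NTC p31. The FNV count was 8 without NTC SL replicate 1, 8 without NTC SL replicate 2, 8 without FNV SL replicate 1 and 9 without FNV SL replicate 2. The NTC, SOX2 and FNV libraries in SL are all of the first wave. That wave alone gave 15 changed members for SOX2, 14 higher and 1 lower (46.9%, against 27.6% of all genes). For FNV it gave 18, 17 higher and 1 lower (56.2% against 41.1%). The lower ones were Scd1 in SOX2 (-0.56, adjusted p = 0.00286) and Srebf1 in FNV (-0.27, 0.0340).

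Against SOX2 in SL, FNV had 1 member higher (3.12%, against 10.2% of all genes) and 1 lower (3.12% against 11.2%). Ebp was higher by 1.67 ± 0.23 (adjusted p = 2.19e-04), with 381 and 493 in FNV against 140 and 131 in SOX2, and Elovl6 was lower (-0.51 ± 0.11, 0.00616, but 0.0686 without FNV SL replicate 2). The first wave alone gave 10 changed members (against 33.3% of all genes). The count was 4 without FNV p21 (12.5%, against 25.5% of all genes). It was 5 without NTC p31 (15.6% against 25.3%) and 5 without FNV p31 (15.6% against 23.0%). Without either FNV library in SL, which leaves 1 in the group, the share of members changed was also under that of all genes.

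The miniSOX libraries in SL are of the second wave and the other SL libraries of the first, so in SL the line and the wave are separated only through the 2i libraries. The fitted changes therefore include a wave shift estimated in 2i and can be several times those between the libraries shown, so each is given beside the value without the wave term. Against NTC, 1 member was higher (3.12%, against 9.44% of all genes) and 3 lower (9.38% against 10.2%): Elovl6 was higher (0.52 ± 0.13, adjusted p = 0.0141; 0.68 and 0.00286 without the wave term) and Srebf2 lower (-0.50 ± 0.13, 0.0139; -0.55 and 0.00399). Scd2 (-0.68 ± 0.16, 0.00988) and Fdps (-0.68 ± 0.22, 0.0434) passed as lower only with the wave term, and without it were -0.10 (0.865) and -0.37 (0.291). None kept the call whichever library was left out. The count was 7 without FNV p21 (21.9%, against 24.8% of all genes), 7 without FNV p31 (21.9% against 20.4%) and 8 without NTC p31 (25.0% against 22.6%). The share of members changed fell under that of all genes without NTC SL replicate 2 or either miniSOX SL library. Each such fit leaves 1 library in a group. Against SOX2, 0 members were higher against 10.4% of all genes (1 at an unadjusted p under 0.05 in limma) and 9 lower (28.1% against 11.2%), with a median of -0.41 beside 0.00. Of these 9, only Srebf2 passed with and without the wave term (-0.50 ± 0.13, adjusted p = 0.0127, and -0.55, 0.00430), though with the term it was lost without SOX2 SL replicate 2 (0.0567) or miniSOX SL replicate 1 (0.0597). Msmo1 was -1.20 ± 0.26 with the term (0.00475) and -0.53 without it (0.363), at 1763 and 1804 in miniSOX against 2635 and 2524 in SOX2. Sqle was -0.62 ± 0.14 (0.00634) and -0.09 (0.911), and its values overlapped (1227 and 1336 against 1321 and 1414). Mvk, counted as lower at -1.12, was 0.01 without the term, with group means of 351 in miniSOX and 348 in SOX2, so its direction rests on the wave term. The count was 5 without SOX2 SL replicate 1, 3 without SOX2 SL replicate 2, 4 without miniSOX SL replicate 1 and 3 without miniSOX SL replicate 2. Without the wave term it was 4, and in the 4 fits that left out a compared library 13.0% to 16.7% of all genes changed. Trophectoderm markers summed to 16206 to 16299 in miniSOX, 9459 to 9479 in NTC, 1622 to 2310 in SOX2 and 2457 to 2473 in FNV in SL, and their part in these differences was not tested.

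The last comparisons asked whether a line's difference depended on the medium. The difference between SOX2 and NTC changed with the medium for 4 members (12.5%, against 18.8% of all genes), and that between FNV and SOX2 for 6 (18.8% against 20.8%), both near or under the background. For Scd1, SOX2 minus NTC was 0.82 in 2i and -0.56 in SL, a difference of 1.37 ± 0.25 (adjusted p = 0.00182). For Srebf2 it was 0.68 in 2i and 0.00 in SL, a difference of 0.68 ± 0.14 (0.00359), and for Elovl6 -0.24 and 0.66, a difference of -0.90 ± 0.14 (7.93e-04). FNV minus SOX2 differed between media for Elovl6 (0.90 ± 0.14, 5.81e-04) and Scd1 (-1.16 ± 0.24, 0.00389), and these 5 calls held whichever library was left out. The first wave alone gave 9 changed members for the SOX2 and NTC pair (28.1% against 30.2%) and 10 for the FNV and SOX2 pair (against 34.1%). The first count was 7 without NTC p31, and the second was 3 without SOX2 SL replicate 1 and 2 without FNV SL replicate 2.

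Other lipid genes were counted from lists that do not overlap the members. For comparison, 11.9% of all genes were higher and 12.8% lower in 2i in NTC, and 22.3% and 22.5% in SOX2. The shares were 20.3% and 20.4% in FNV, and 17.0% and 16.4% in miniSOX. In all 4 lines 3.78% of all genes were higher and 3.53% lower. Of 16 genes of sterol uptake, transport and efflux, the medium comparison gave 1 higher and 5 lower in NTC, 5 and 3 in SOX2, 4 and 2 in FNV, and 4 and 4 in miniSOX. Npc2, a carrier of cholesterol out of lysosomes, was higher in 2i in all 4 lines (NTC 1.48, SOX2 2.28, FNV 1.46 and miniSOX 1.64), and Lrp8, a lipoprotein receptor, was lower in all 4 (-2.63, -1.72, -2.11 and -4.47). Of 21 genes of fatty acid oxidation, 5 were higher and 3 lower in NTC, 9 and 2 in SOX2, 9 and 0 in FNV, and 10 and 0 in miniSOX. Slc25a20, the mitochondrial carnitine carrier, was higher in 2i in all 4 lines (NTC 0.88, SOX2 1.96, FNV 2.94 and miniSOX 2.69). Of 11 genes of SREBP processing and the INSIG-linked ubiquitin ligases, 0 were higher and 4 lower in NTC, 2 and 2 in SOX2, 3 and 2 in FNV, and 0 and 1 in miniSOX. Rnf145, a sterol-linked ubiquitin ligase, was lower in all 4 lines (-0.67, -1.43, -0.71 and -0.49).

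The shares of all genes given above apply to the next lists too. Of 24 other genes of fatty acid synthesis and elongation, 5 were higher and 4 lower in 2i in NTC, 6 and 4 in SOX2, 6 and 6 in FNV, and 9 and 2 in miniSOX. Mlxipl, which encodes the carbohydrate-sensing factor ChREBP, was higher in 2i in all 4 lines (1.65, 3.60, 3.02 and 2.42). Of 9 sterol genes outside the members, 0 were higher and 0 lower in NTC, 0 and 4 in SOX2, 1 and 5 in FNV, and 0 and 5 in miniSOX. Of 18 genes of glycerolipid synthesis, 3 were higher and 2 lower in NTC, 4 and 5 in SOX2, 6 and 2 in FNV, and 5 and 3 in miniSOX. Agpat4, an acyltransferase of phosphatidic acid synthesis, was lower in all 4 (-3.27, -2.44, -2.50 and -1.68).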

How the data were processed

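Poly(A)-selected RNA of 21 libraries was sequenced. The submitters' processing notes name RSEM, Bowtie2 2.0 and the mm10 build; the normalization software and the use of strand are not given in the sources used here. The authors deposited 1 table of whole-number normalised values, treated here as a score because, once each library is sorted, 66.3% of ranks hold the identical value in all libraries and no rank differs by more than 3 units. Read depth is therefore unknown and no counting interval was given.

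From these values log2(value + 1) was fitted with limma 3.58.1 (R 4.3.3) for 16443 genes, with terms for group and wave, 12 residual degrees of freedom, and trended, robust variances. Two-sided p-values were adjusted by the Benjamini-Hochberg method over all genes, with a threshold of 0.05. No count model was fitted, since the table holds no counts. The 5 columns named p21 or p31 matched a group but no single sample. Members and gene lists were chosen with earlier results of these data known. By the rule for named genes, library values go to the members of each role and up to 8 called members a comparison with the largest change, and the other lists give up to 3 called genes each. The text names part of these, and from the other lists it took genes that passed in all 4 lines, a choice made after their values were seen. Gene names and positions came from GENCODE M21, and the fit was tested on simulated data. Alternatives were other pseudocounts, a filter at a mean of 50, median centring, no wave term, single waves, only the groups compared, averaged replicates, a replicate block and each library left out. Figures were drawn with matplotlib 3.10.9 in Python 3.11.15.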

Additional observations from a re-analysis of the deposited data

Results flagged for a closer look

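Dixon's test at the 95% level was applied to the 64 groups of 4 libraries (32 members in SOX2 and FNV cells in 2i), where chance marks about 1 in 20 groups, and it marked 5. Idi1 was high in SOX2 p21 (2818, against 2093 to 2161 in the other SOX2 libraries). Lss (535, against 703 to 731) and Fads1 (545, against 991 to 1055) were low in FNV p31. Msmo1 (1988, against 1438 to 1521) and Hsd17b7 (428, against 260 to 272) were high in FNV p21. All 5 values came from second-wave libraries.

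In all, 10 differences between lines depended on the medium in limma, each at an adjusted p under 0.05 for the difference itself, as the value in 2i minus that in SL. For SOX2 against NTC they were Acat2 (-0.77, adjusted p = 0.0103, and 0.0558 without NTC SL replicate 2), Srebf2 (0.68), Elovl6 (-0.90) and Scd1 (1.37). For FNV against SOX2 they were Elovl6 (0.90), Scd1 (-1.16), Pmvk (-1.17, 0.0221), Ebp (-1.24), Fads1 (-0.80, 0.0165) and Fads2 (-1.15, 0.0347). Pmvk was lost without SOX2 SL replicate 1 (0.0874) or FNV SL replicate 2 (0.108), and Fads1 without the same libraries (0.0529 and 0.0604). Fads2 was lost without any 1 of 7 libraries (0.0540 to 0.0949). Dropping the wave term lost Acat2 (0.0533), Pmvk (0.0836), Ebp (0.0917), Fads1 (0.116) and Fads2 (0.0544).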

How the results depend on the processing

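Of 4644 alternative values for called members, 4028 kept direction and side of the threshold, 610 kept the direction only and 6 turned. Of the 154 calls, 73 held whichever library was left out. Counts of changed members are given in this order: 2i against SL in NTC, SOX2, FNV and miniSOX; in 2i SOX2, FNV and miniSOX against NTC, then FNV and miniSOX against SOX2; the same 5 in SL; and the differences between media of SOX2 against NTC and FNV against SOX2. With each library left out in turn they ranged over 8 to 16, 12 to 20, 10 to 18, 5 to 13, 6 to 17, 10 to 17, 3 to 12, 8 to 14, 3 to 9, 2 to 10, 8 to 17, 1 to 8, 1 to 5, 3 to 11, 3 to 7 and 2 to 9. With replicates 1 and 2 averaged they were 0, 2, 2, 1, 0, 4, 0, 1, 0, then 0 for the other 7. That fit takes replicates 1 and 2 as 1 sample, which leaves 1 in every SL group and in miniSOX in 2i. It held fewer libraries, and why the counts fell was not tested. Without the wave term the counts that moved by over 1.5 times were 7 in NTC, 9 in FNV and 7 in miniSOX for the medium, 4 for miniSOX against SOX2 in 2i, 2, 6 and 4 in SL for SOX2 against NTC, FNV against NTC and miniSOX against SOX2, and 2 for the last difference between media. With only the groups compared they were 10 for the medium in FNV, 8 and 17 for FNV and miniSOX against NTC in 2i, and 13 and 4 in SL for miniSOX against NTC and FNV against SOX2. First-wave libraries alone gave 24 for FNV against NTC in 2i, 15 and 10 in SL for SOX2 against NTC and FNV against SOX2, and 9 and 10 for the differences between media. Second-wave libraries alone gave 8 for the medium in miniSOX and 1, 4, 3, 3 and 4 in 2i. The cause was not tested. The replicate numbers did not pair the libraries (correlations of deviations from -0.09 to 0.09), and with a replicate block the counts were 11, 16, 16, 12, 12, 13, 7, 11, 6, 4, 14, 4, 2, 7, 4 and 6, each within 1.5 times of the reported one. Values that turned were Hmgcs1 (-0.16) and Hsd17b7 (-0.07) for SOX2 and Hmgcs1 (-0.08) and Acaca (-0.02) for FNV against NTC in 2i in the second wave alone, and Mvk for miniSOX against SOX2 in SL (0.01) without the wave term or with only the groups compared. Read depth is unknown, groups in SL hold 2 libraries each, and miniSOX in SL differs from the other lines in SL also by wave.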

Other observations

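Other lipid genes also differed between lines. Of 21 genes of fatty acid oxidation, 5 were higher and 2 lower in SOX2 than in NTC in 2i (14.4% and 14.3% of all genes), 9 and 1 in FNV (19.7% and 20.0%), and 6 and 0 in miniSOX (14.3% and 13.5%). These counts include NTC p31, where Cpt1a read 661 against 2305 and 2219 in replicates 1 and 2. In SL 1 was higher and 4 lower in SOX2 (7.35% and 7.63% of all genes), 2 and 6 in FNV (14.2% and 15.8%), and 0 and 4 in miniSOX (9.44% and 10.2%). Slc25a20 was lower than in NTC in SL in SOX2 (-1.76), FNV (-2.10) and miniSOX (-1.97). The summed value of the oxidation genes was 16378 to 19638 in NTC in 2i and 15370 to 15880 in SL, 18554 to 20802 and 12863 to 13286 in SOX2, 21457 to 23178 and 14445 to 14682 in FNV, and 21603 to 22048 and 13296 to 13879 in miniSOX. Whether the summed values differ between media was not tested. The 3 rescued lines share the NTC libraries.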
